A study of Mus musculus with 58 samples.

Results

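Csf1r and 8 genes for transcription factors and TGF-β signaling proteins that set microglial identity, namely Spi1, Sall1, Maf, Mef2a, Mef2c, Runx1, Tgfbr1 and Smad3, were followed across 34 libraries of mouse microglia. The genes were found by matching their symbols to the Ensembl identifiers of the count tables, so that the 9 genes are 9 of the 47643 listed there. All 9 had enough counts to be tested in every comparison.

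Microglia arise from yolk sac progenitors and depend on CSF1R, the receptor for CSF1 and IL-34, for survival and proliferation. PU.1, encoded by Spi1, is the ETS factor that opens most macrophage enhancers, and RUNX1 acts beside it in early myeloid development. TGF-β, signaling through TGFBR1 and the receptor-activated SMADs such as SMAD3, is needed for the program of adult brain microglia, and SALL1, MAF, MEF2A and MEF2C are factors linked to that program. Much of this program is known to be lost when microglia are placed in culture.

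The study asked how tau and the NF-κB kinase IKKβ, encoded by Ikbkb, change microglia. Primary microglia from wild-type pups were exposed for 24 h either to tau fibrils at 2 µg/ml or to vehicle (4 cultures each). Microglia were isolated with CD11b beads from the perfused brains of 4 PS19 mice, transgenic for P301S human tau under the prion protein promoter, and of 4 non-transgenic (NTG) mice, all labelled male and all aged 10.98 to 11.18 months. IkbkbCA cultures (n = 5) came from Cx3cr1 CreERT2/+ mice with a floxed-stop, constitutively active IKKβ in the Rosa26 locus, and their IkbkbWT controls (n = 5) carried the same floxed allele but no Cre. Ikbkb-/- cultures (n = 4) came from Cx3cr1 CreERT2/+ mice with floxed Ikbkb, and their Ikbkb+/+ controls (n = 4) carried the floxed alleles without Cre. All cultures of both Ikbkb experiments, controls included, received 4-hydroxytamoxifen, and only the mutant groups have 1 Cx3cr1 allele replaced by the Cre. The cultures were shaken off mixed glia from the hippocampi and cortices of newborn pups. For RNA-seq, the paper describes plating for 24 h before exposure in the tau experiment. It names no plating for RNA of the Ikbkb cultures and says that floating cells were taken for RNA analysis. Nothing in the labels ties a culture to a litter, and separate preparations are not stated. The p-values thus measure the spread between these samples.

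Libraries were QuantSeq 3′ mRNA-Seq, which reads 1 fragment near the 3′ end of a transcript. Total counts were 1672052 to 8349128, and levels are given as CPM, counts scaled to library size with TMM normalization over the 34 libraries. The 11 microglia and macrophage markers were all detected in every group, and their summed level was 5195 to 7444 CPM in vehicle cultures, the lowest of any group, and 27960 to 36750 CPM in NTG mice. Ikbkb fell in Ikbkb-/- cultures, from 52.0 ± 4.35 to 22.6 ± 2.81 CPM (SD, n = 4 each, FDR = 6.3e-07 in edgeR's quasi-likelihood test). In IkbkbCA cultures it was 52.8 ± 6.63 CPM against 46.7 ± 7.06 CPM (SD, n = 5 each, FDR = 0.41). The paper reports raised Ikbkb mRNA in such cultures by quantitative PCR. The active form is expressed from another locus, and whether these counts capture its transcript was not tested. The sex-linked transcripts Xist and Ddx3y differed between libraries of both Ikbkb experiments. PS19 replicate 1, labelled male, had 979 Xist counts against 11 to 148 in the other 7 adult libraries. In CPM, Xist was 177 in PS19 replicate 1, 31.1 in replicate 2, 4.31 in replicate 3 and 1.80 in replicate 4. It was 26.4 to 31.1 CPM in NTG mice. Values without PS19 replicate 1, and with Ddx3y as a covariate in the Ikbkb experiments, stand beside the results they touch.

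The genes lie on GRCm38 (GENCODE M21) as follows. Csf1r (ENSMUSG00000024621) spans chr18:61100598-61132149 and overlaps Hmgxb3 on the other strand. Spi1 (ENSMUSG00000002111) spans chr2:91082390-91115756 and Sall1 (ENSMUSG00000031665) chr8:89027235-89044162. Maf (ENSMUSG00000055435) spans chr8:115682942-115707794, with Gm15655 on the other strand. Mef2a (ENSMUSG00000030557) spans chr7:67231163-67372858 and shares positions with Gm44667 and Gm44668 on its own strand and Lysmd4 on the other. Mef2c (ENSMUSG00000005583) spans chr13:83504034-83667080, and Runx1 (ENSMUSG00000022952) chr16:92601466-92826149 with Gm26626 on the other strand. Tgfbr1 (ENSMUSG00000007613) spans chr4:47353222-47414931 and Smad3 (ENSMUSG00000032402) chr9:63646767-63757994. The counting setting for strand is not given in the sources used here, so reads of overlapping genes may not be separable.

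**Figure D1:**
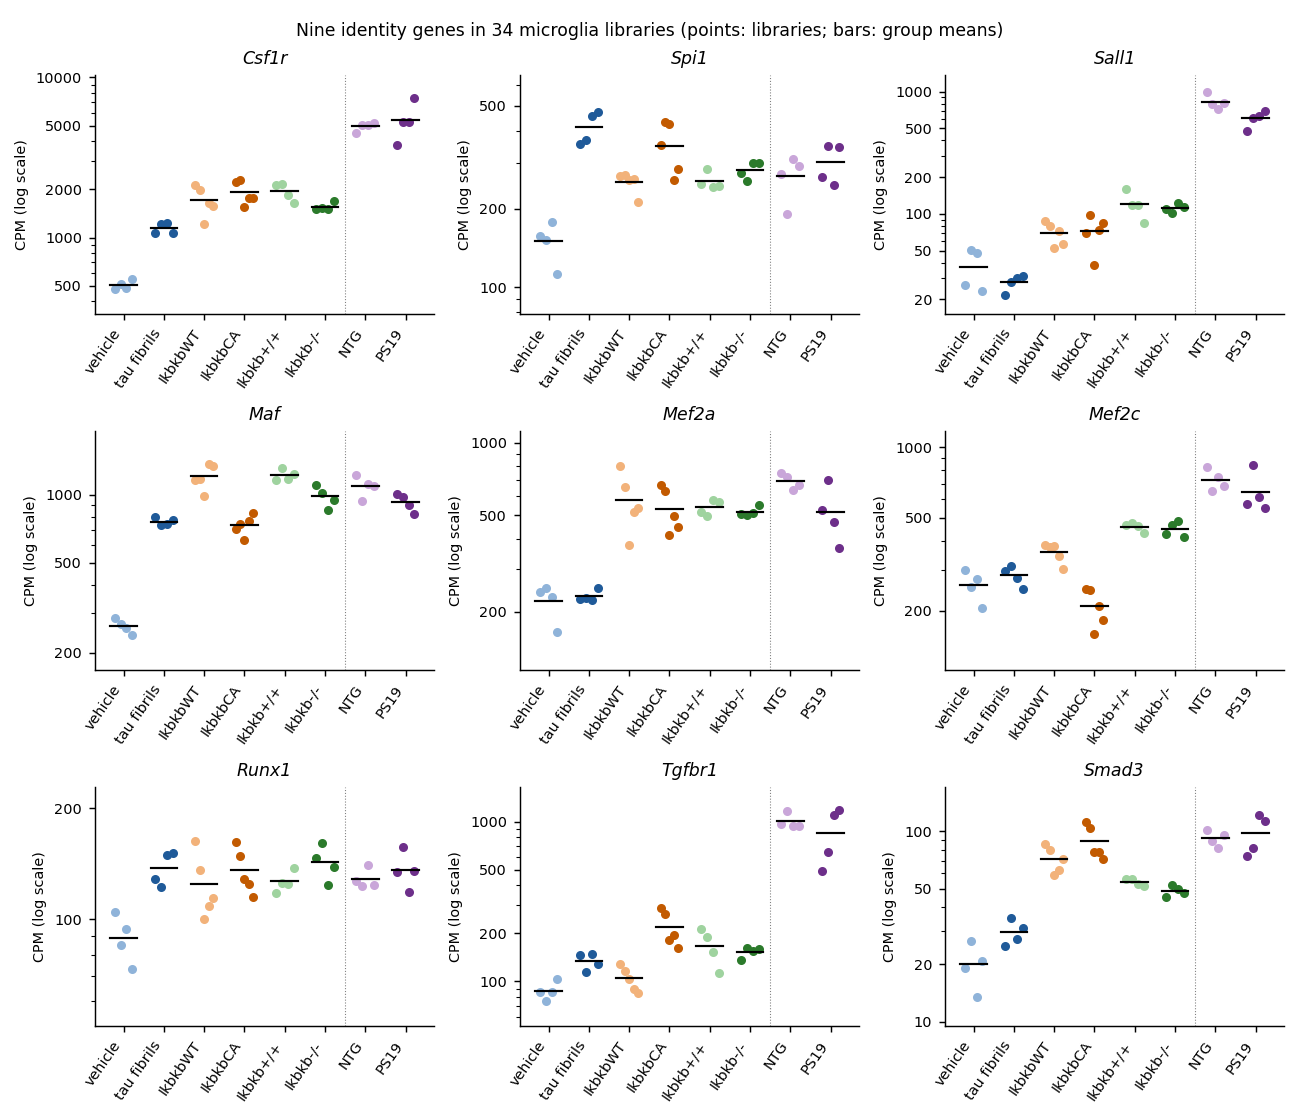
CPM of each of the 9 genes on a log axis, with 1 point for each of the 34 libraries and a bar for each group mean. The 8 adult libraries, right of the dotted line, lie above all 26 cultured libraries for Csf1r, Sall1, Mef2c and Tgfbr1, while Runx1 stays between 73.1 and 163 CPM throughout.

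The 9 genes differed widely in how far their levels moved across the 8 groups. Sall1 had the widest span, with group means from 27.6 CPM in tau-treated cultures to 826 CPM in NTG microglia, or 30.0-fold. Tgfbr1 spanned 11.5-fold and Csf1r 10.7-fold. Smad3 spanned 4.89-fold, Maf 4.67-fold, Mef2c 3.47-fold, Mef2a 3.14-fold and Spi1 2.75-fold. Runx1 was the most even, with a 1.60-fold span between its lowest group mean, 89.0 CPM in vehicle, and its highest, 142 CPM in Ikbkb-/- cultures.

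In CPM, acutely isolated NTG microglia had higher levels of Csf1r, Sall1, Tgfbr1, Mef2c, Smad3 and Mef2a than control cultures. Relative to microglia markers, the means of Mef2c, Smad3 and Mef2a were not above every control group. The call for Maf, Spi1 and Runx1 depended on which cultures they were set against. NTG microglia were compared with the mean of the vehicle, IkbkbWT and Ikbkb+/+ cultures in one fit of 17 libraries, in which 60.8% of 13004 genes were called at FDR under 0.05 and 30% were called higher in adults. All 9 members were called higher against that mean. Because vehicle cultures had the lowest microglia marker sum, the comparison was repeated, after the values were seen, against the IkbkbWT and Ikbkb+/+ cultures only, where 6 of the 9 were called. Age, isolation, culture and experiment differ together in this comparison and cannot be told apart. Plating, described for the tau experiment only, may also differ among the control cultures. In bulk samples, here and in each comparison that follows, fewer microglia and less RNA per microglia cannot be told apart either. Sall1, the zinc finger factor most restricted to microglia among brain macrophages, differed most, by a log2 fold change of 3.68 (SE 0.16, FDR = 1.1e-13). It was 986, 793, 720 and 806 CPM in the 4 NTG mice and 21.8 to 160.0 CPM in the 26 cultured libraries. Tgfbr1, the type I TGF-β receptor, followed with a log2 fold change of 3.21 (SE 0.12, FDR = 3.6e-14), from 74.8 to 289 CPM in culture and 941 to 1172 CPM in NTG mice. Csf1r was 4510 to 5183 CPM in NTG mice against 477 to 2288 CPM in culture, a log2 fold change of 2.13 (SE 0.10, FDR = 4.4e-13).

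For these 3 genes and for Mef2c no cultured library reached the lowest adult one. Across all genes tested, 12.5% were higher in every NTG library than in every control culture. Mef2c, a MADS-box factor that restrains microglial activation, had a log2 fold change of 1.13 (SE 0.09, FDR = 1.1e-09). Smad3 had 1.16 (SE 0.12, FDR = 3.4e-08) and Mef2a 0.83 (SE 0.13, FDR = 1.2e-05), with overlapping groups. Against the IkbkbWT and Ikbkb+/+ cultures only, the log2 fold changes were 3.30 for Sall1, 3.05 for Tgfbr1, 1.55 for Csf1r, 0.96 for Mef2c, 0.67 for Smad3 (FDR = 2.8e-05) and 0.43 for Mef2a (FDR = 0.012). Per 1000 CPM of microglia markers, untested, NTG means were 163 for Csf1r, 27.4 for Sall1 and 32.9 for Tgfbr1, above each control group's mean. Mef2a averaged 22.9, against 32.25 in IkbkbWT, 26.4 in Ikbkb+/+ and 36.25 in vehicle cultures. In the same order, Mef2c averaged 24.2 against 20.2, 22.3 and 42.5, and Smad3 3.04 against 4.05, 2.63 and 3.19.

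For Maf, Spi1 and Runx1 the pooled value came from the vehicle cultures. Maf was 1093 ± 115 CPM in NTG mice (SD, n = 4), below the means of 1210 CPM in IkbkbWT and 1224 CPM in Ikbkb+/+ cultures and above the 262 CPM of vehicle cultures. Its pooled log2 fold change of 0.66 (SE 0.09, FDR = 2.2e-06) turned to -0.04 (SE 0.10, FDR = 0.74) without the vehicle group. Spi1 was 267 CPM in NTG mice against 254.5, 255 and 149.9 CPM in IkbkbWT, Ikbkb+/+ and vehicle cultures, with a pooled log2 fold change of 0.39 (SE 0.11, FDR = 0.0058) and 0.18 (SE 0.11, FDR = 0.17) without vehicle. Runx1 was 128 CPM against 124, 126.5 and 89.0 CPM, with 0.27 (SE 0.11, FDR = 0.036) and 0.15 (SE 0.11, FDR = 0.24). The Spi1 call was lost with total-count scaling (log2 fold change 0.18, FDR = 0.16), which shifts the median of all genes by -0.24, and the Runx1 call was lost there (0.06, FDR = 0.63), without a filter (0.20, FDR = 0.19) and in 10 of 17 fits that left out 1 library.

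Genes of the same pathways differed between adult and cultured microglia in both directions. Of 26 tested genes of the TGF-β and SMAD pathway, 14 were higher and 5 lower in adults, with a median log2 fold change of 0.37 against -0.03 over all genes. Eng, an accessory TGF-β receptor, was higher by a log2 fold change of 4.08 (SE 0.26) and Smad7, the inhibitory SMAD that TGF-β signaling itself induces, by 2.00 (SE 0.19). Itgb8, which pairs with αV integrin to release active TGF-β, was lower by -2.31 (SE 0.43) and the decoy receptor gene Bambi by -2.23 (SE 0.28). Of 22 genes of the CSF1R axis and related receptors, 11 were higher and 6 lower, Csf3r, the G-CSF receptor, among the former (2.84, SE 0.21) and the kinase gene Fyn among the latter (-2.92, SE 0.16). Of 20 homeostatic microglia genes, 19 were higher and 1 lower, with a median of 3.92. They included P2ry12, a purine receptor of surveying microglia, at 6.33 (SE 0.22), and Siglech, a microglial lectin, at 7.61 (SE 0.44). The markers of monocytes and granulocytes differed as well, with sums of 437 to 2594 CPM in the 8 adult libraries and 1.57 to 408 CPM in culture, and 9 of 10 endothelial markers were called higher in adults. Their part in the member levels was not tested.

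Tau fibrils raised 6 of the 9 genes in culture and lowered none. In that comparison 29.9% of the 10408 genes tested were called, and 14.5% of those tested were called higher. The median log2 fold change of the 9 genes was 0.67, against -0.01 over all genes.

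Maf, a bZIP factor of tissue macrophages, was 799, 733, 741 and 779 CPM in the 4 tau-treated cultures. With vehicle it was 285, 269, 256 and 239.7 CPM. The groups did not overlap, and the log2 fold change was 1.58 (SE 0.12, FDR = 4.4e-11), the largest of the 9. Spi1 was 357, 368, 455 and 471 CPM with tau fibrils and 158, 151, 178 and 113 CPM with vehicle, 2.83-fold higher (SE 0.15 on the log2 scale, FDR = 4.5e-09). Csf1r was 1069, 1218, 1236 and 1066 CPM with tau fibrils and 477, 514, 487 and 554 CPM with vehicle, a log2 fold change of 1.22 (SE 0.12, FDR = 8.9e-09). Every tau-treated culture lay above every vehicle culture for all 3 genes.

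Runx1 was 128, 122, 149 and 151 CPM with tau fibrils against 104, 85.0, 93.7 and 73.1 CPM with vehicle, a log2 fold change of 0.67 (SE 0.14, FDR = 5.3e-04). Tgfbr1 was 146, 114.5, 149 and 129 CPM with tau fibrils against 85.3, 74.8, 86.3 and 103 CPM, also with a log2 fold change of 0.67 (SE 0.14, FDR = 6.3e-04). Neither gene's groups overlapped. With Maf, Spi1 and Csf1r these made 5 of 9 genes higher in every tau-treated culture, a pattern found in 12.6% of all genes tested. Smad3, the transducer downstream of TGFBR1, was 25.1, 35.0, 27.1 and 30.9 CPM against 19.0, 26.6, 13.5 and 20.8 CPM, with 31 to 135 counts per library. Its groups overlapped, its log2 fold change was 0.58 (SE 0.22, FDR = 0.042), and it stayed under the FDR threshold in 3 of 6 other settings and in only 2 of 8 fits that left out 1 library, those without tau-treated replicate 1 or vehicle replicate 2.

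The remaining 3 genes did not pass. Sall1 was 21.8, 27.6, 30.0 and 30.9 CPM with tau fibrils and 26.1, 50.6, 47.5 and 23.4 CPM with vehicle (log2 fold change -0.40, SE 0.22, FDR = 0.19). Mef2a was 223 to 251 CPM against 164 to 249.8 CPM (0.11, SE 0.13, FDR = 0.60), and Mef2c 247 to 313 CPM against 206 to 300.5 CPM (0.18, SE 0.13, FDR = 0.35). For Mef2a the sign of the log2 fold change turned with total-count scaling, to -0.04.

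The share of microglial RNA moved with the treatment. The sum of the 11 microglia and macrophage markers was 12010 to 14680 CPM in the tau-treated cultures and 5195 to 7444 CPM in the vehicle cultures, and 8 of the 11 markers were called higher with a median log2 fold change of 1.38. Astrocyte markers summed to 452 to 516 CPM with tau fibrils and 836 to 964 CPM with vehicle, neuronal markers to 197 to 249 CPM and 383 to 489 CPM, and endothelial and mural markers to 195 to 207 CPM and 476 to 599 CPM. To set the 9 genes against this, each gene's CPM was divided by the marker sum of its library, a measure chosen after the values were seen and given without a test. Per 1000 CPM of markers, Csf1r was 84.2 to 88.8 CPM with tau fibrils and 74.4 to 91.9 CPM with vehicle, so the groups overlapped. Spi1 (26.8 to 39.2 against 15.1 to 30.4) and Maf (50.5 to 64.8 against 32.2 to 54.8) overlapped too. Sall1, Mef2a and Mef2c were lower in every tau-treated culture on this scale, as were 72.1% of all genes tested, so that 3 of 9 is a smaller share than the background. Sall1 was 1.75 to 2.57 against 3.14 to 8.10, Mef2a 15.2 to 20.9 against 22.03 to 46.5, and Mef2c 18.9 to 23.8 against 27.7 to 57.8. None of the 9 was higher in every tau-treated culture per marker CPM, against 2.34% of all genes. The markers are themselves measured in RNA, and Aif1 alone differed by a log2 fold change of 3.14, so the scale is not a count of cells.

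**Figure D2:**
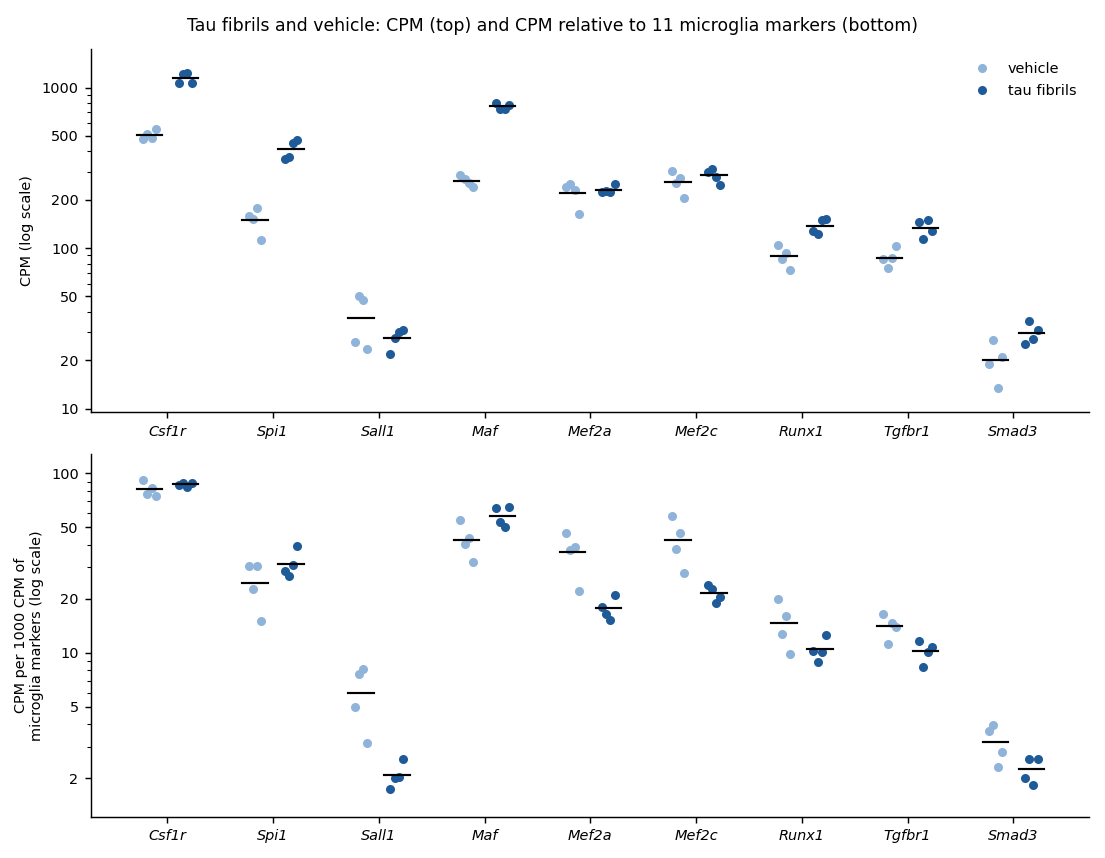
Levels of the 9 genes in the 4 tau-treated and 4 vehicle cultures as CPM (top) and as CPM per 1000 CPM of 11 microglia and macrophage markers (bottom), both on log axes, with points for cultures and bars for means. In CPM, 5 genes lie higher in every tau-treated culture; per marker CPM, Sall1, Mef2a and Mef2c lie lower in every one, as 72.1% of all genes do, and Csf1r overlaps.

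Of 21 tested genes of the CSF1R axis and related receptors, 11 were higher and 4 lower, with a median log2 fold change of 0.63. Ptpn6, the phosphatase SHP-1 of myeloid receptors, was higher by 1.95 (SE 0.14) and the Src family kinase gene Lyn by 1.38 (SE 0.13). The cytokine receptor genes Csf2ra (1.37, SE 0.22) and Csf2rb2 (1.09, SE 0.17) were higher as well. Of 25 TGF-β and SMAD genes, 5 were higher and 4 lower, with a median of -0.01. Tgfb1, the ligand, was higher by 1.54 (SE 0.24) and Nrros, which holds latent TGF-β1 on microglia, by 0.92 (SE 0.14). Itgb8 was lower by -1.17 (SE 0.24) and Zfyve9, the SMAD anchor SARA, by -0.93 (SE 0.24). Of 35 other macrophage and microglia transcription factors, 14 were higher and 7 lower, led by Nr1h3, the liver X receptor α, at 3.08 (SE 0.30). Of 16 homeostatic genes 5 were higher, Tmem119 among them at 2.27 (SE 0.24), and 6 were lower, Slco2b1 (-1.95, SE 0.16) and the receptor gene Gpr34 (-1.54, SE 0.22) among them.

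In microglia of 11-month-old PS19 mice none of the 9 genes was called against NTG by edgeR, where 8 of 11323 genes, or 0.0707%, were called. The paper, with its own fit, reports many more genes higher in PS19 microglia at the same FDR threshold, and why was not tested. With so few calls, a gene not called here is not shown to be unchanged. No member was called by DESeq2 or limma-voom either, and 2 had an unadjusted p under 0.05, a level that 8.63% of all genes reached. Sall1 was 473, 613, 638 and 699 CPM in PS19 mice and 986, 793, 720 and 806 CPM in NTG mice, so every PS19 library lay below every NTG library, as in 1.66% of genes. Its log2 fold change was -0.51 (SE 0.19, unadjusted p = 0.020 in edgeR's quasi-likelihood test, FDR = 0.48). Without PS19 replicate 1, the library with the highest Xist level, it was -0.41 (FDR = 0.60), and with age as a covariate -0.39 (FDR = 0.98). The 4 PS19 mice and NTG replicates 3 and 4 were aged 10.98 months, and NTG replicates 1 and 2 were 11.18. With age in the model, the log2 fold change thus sets PS19 mice against NTG replicates 3 and 4 only. Mef2a was 528, 699, 468 and 366 CPM in PS19 mice and 751, 718, 640 and 671 CPM in NTG mice, with overlap through PS19 replicate 2 (log2 fold change -0.50, SE 0.21, FDR = 0.53, with an unadjusted p of 0.034 in edgeR's quasi-likelihood test).

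Tgfbr1 separated the PS19 mice among themselves, with 491 and 642 CPM in replicates 1 and 2 and 1102 and 1176 CPM in replicates 3 and 4, against 972, 1172, 943 and 941 CPM in NTG mice (log2 fold change -0.30, SE 0.27, FDR = 0.79). Smad3 had its 2 higher levels in the same animals, 122 and 113 CPM against 73.9 and 81.8 CPM. Reads outside annotated genes were 22.1% and 38.3% in PS19 replicates 1 and 2 and 20.8% and 19.9% in replicates 3 and 4, and astrocyte markers summed to 902 and 1053 CPM and to 1994 and 1571 CPM. Xist was 177 and 31.1 CPM in replicates 1 and 2 and 4.31 and 1.80 CPM in replicates 3 and 4. The part of these differences in the Tgfbr1 levels was not tested. Csf1r was 3773, 5267, 5234 and 7448 CPM in PS19 mice and 4510 to 5183 CPM in NTG mice (0.07, SE 0.22, FDR = 0.95). The log2 fold changes of Spi1 (0.12, SE 0.21), Maf (-0.30, SE 0.17), Mef2c (-0.24, SE 0.19), Runx1 (0.02, SE 0.17) and Smad3 (0.03, SE 0.20) did not pass. Without PS19 replicate 1 none of the 9 was called, and the log2 fold changes were -0.51 for Mef2a, -0.34 for Maf, -0.18 for Mef2c, -0.11 for Tgfbr1, 0.03 for Runx1, 0.14 for Smad3, 0.18 for Spi1 and 0.22 for Csf1r. The biological coefficient of variation between mice was 30.5%, against 10.9% to 23.5% between cultures. None of the 102 tested genes of the 4 related lists was called.

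**Figure D3:**
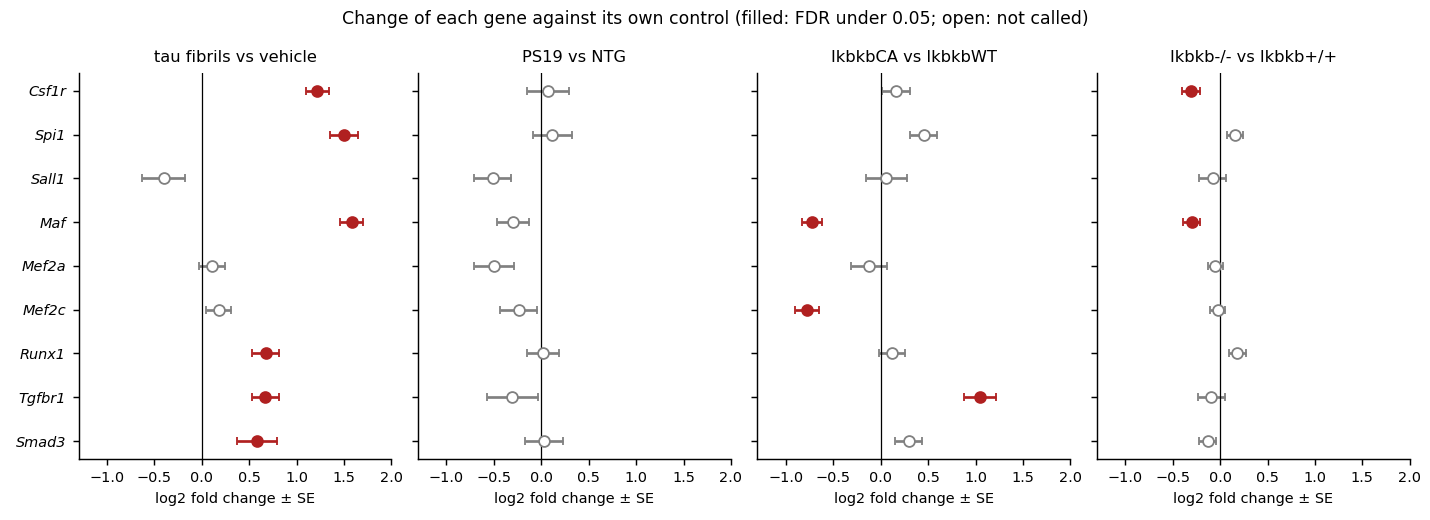
Log2 fold change of each of the 9 genes against its own control, with bars of 1 SE, in the 4 comparisons. Filled points have an FDR under 0.05: 6 genes with tau fibrils, 0 in PS19 mice, Tgfbr1, Maf and Mef2c in IkbkbCA cultures, and Csf1r and Maf in Ikbkb-/- cultures.

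IkbkbCA cultures differed from their controls in 3 of the 9 genes, and not in one direction. Those cultures also carry the Cre, which their controls lack. Cx3cr1, the locus of the Cre, was 1198 ± 80.3 CPM against 1759 ± 222 CPM (SD, n = 5 each, FDR = 0.0015 in edgeR's quasi-likelihood test). Effects of the Cre and of IKKβ cannot be told apart in this comparison. In IkbkbCA cultures 14.5% of the 11697 genes tested were called, with 7.31% of those tested higher and 7.16% lower, and among the 9 Tgfbr1 rose while Maf and Mef2c fell. Tgfbr1 was 289, 263, 181, 194 and 161 CPM in the 5 IkbkbCA cultures and 129, 116, 104, 89.1 and 84.5 CPM in the 5 IkbkbWT cultures, a log2 fold change of 1.05 (SE 0.17, FDR = 0.0015). The groups did not overlap, as in 12.4% of all genes. Maf was 709.8, 743, 634, 769 and 835 CPM in IkbkbCA and 1160.0, 1183, 989, 1376 and 1341 CPM in IkbkbWT cultures, a log2 fold change of -0.72 (SE 0.11, FDR = 9.2e-04). Mef2c was 249, 246, 159.9, 209 and 183 CPM against 382, 376, 380.5, 343 and 302 CPM, a log2 fold change of -0.78 (SE 0.13, FDR = 0.0014). All 3 were called in each of the 10 fits that left out 1 library and in 8 of 8 other settings.

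The groups were also apart for all 3 genes per 1000 CPM of microglia markers. Tgfbr1 was 7.04 to 10.1 in IkbkbCA and 5.44 to 6.43 in IkbkbWT cultures, and Mef2c 8.00 to 8.73 against 18.5 to 23.6. Maf was 24.9 to 36.6 against 56.2 to 86.9. Mef2a, not called in CPM, was 19.7 to 23.3 against 23.5 to 38.8 and so also lower in every IkbkbCA culture on this scale. Of all genes tested, 24.4% were lower and 2.09% higher in every IkbkbCA culture per marker CPM. The marker sum itself was 19180 to 28530 CPM in IkbkbCA and 15430 to 20640 CPM in IkbkbWT cultures. Markers of border-associated macrophages, which live in the meninges and around vessels, summed to 492 to 1035 CPM in IkbkbCA and 1407 to 1978 CPM in IkbkbWT cultures, and 6 of 7 tested were called lower. Oligodendrocyte lineage markers reached 5623 CPM in IkbkbWT replicate 3 against 545 to 1237 CPM in the other IkbkbWT cultures. Their part in the Maf and Mef2c levels was not tested. Without IkbkbWT replicate 3 all 3 genes were called. Ddx3y, from the Y chromosome, was 143 to 177 CPM in IkbkbWT replicates 1 to 3, 1.15 to 2.04 CPM in replicates 4 and 5, and 49.3 to 85.9 CPM in the IkbkbCA cultures. With Ddx3y as a covariate the log2 fold changes were 0.99 for Tgfbr1, -0.66 for Maf and -0.81 for Mef2c, all called.

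The other 6 genes were not called in IkbkbCA cultures. Spi1 came nearest, with 353, 431, 426.5, 259 and 286 CPM against 269, 271, 258, 262 and 213 CPM (log2 fold change 0.45, SE 0.14, FDR = 0.052). It passed in 4 of 8 other settings, among them DESeq2 (0.48, FDR = 0.013), and in 2 of 10 fits that left out 1 library, those without IkbkbCA replicate 4 or 5. Csf1r was 1547 to 2288 CPM against 1222 to 2122 CPM (0.16, SE 0.15, FDR = 0.56). Smad3 (0.29, SE 0.14, FDR = 0.21), Runx1 (0.12, SE 0.13, FDR = 0.65), Sall1 (0.06, SE 0.22, FDR = 0.90) and Mef2a (-0.13, SE 0.19, FDR = 0.74) overlapped between groups.

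Around Tgfbr1, 4 of 25 tested TGF-β and SMAD genes were higher in IkbkbCA cultures and none lower by edgeR. They were the TGF-β repressor gene Tgif1 (0.84, SE 0.11), Skil, which encodes the SMAD repressor SnoN (0.45, SE 0.08), the ubiquitin ligase gene Smurf1 (0.59, SE 0.15) and Eng (1.00, SE 0.29). The type II receptor gene Tgfbr2 was 182 ± 13.4 CPM in IkbkbCA and 174 ± 28.0 CPM in IkbkbWT cultures (SD, n = 5 each, FDR = 0.81). Of 37 other transcription factors, 6 were higher, among them Nr1h3 (2.24, SE 0.30) and Cebpb (1.04, SE 0.28), and 5 lower. In the CSF1R axis 4 of 21 genes were higher and 2 lower, with Csf2rb2 at 1.01 (SE 0.12) and the PI3K subunit gene Pik3cd at -0.73 (SE 0.16). Homeostatic genes went both ways, Tmem119 higher by 1.60 (SE 0.32) and Fcrls lower by -1.91 (SE 0.37), with 2 of 19 higher and 3 lower.

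Promoter sequences are shown for Mef2c and Tgfbr1, the genes whose IkbkbCA and Ikbkb-/- effects differed. RefSeq (GRCm38.p6) gave 12 windows of 300 bases, from 250 bases before to 50 after a transcript start, for 6 of the 9 genes. Csf1r, Spi1 and Maf had no window and were not searched. Letters were searched on both strands. A loose form of the κB site to which NF-κB binds, GGGA and CC with any 4 bases between them, was found in 3 of the 12 windows (25%), 1 each of Sall1, Mef2a and Mef2c, and in 20.7% of all 32851 windows. The MEF2 letters, CTA and TAG with any 4 bases between them, were in 1 window, that of Mef2a (3.69% of all windows), and TGTGGTT, the RUNX site, in 1 window of Runx1 (5.27%). Neither GAGGAA followed by GT, an ETS site of the kind PU.1 binds (3.20%), nor TGCTGAC, a MAF recognition core (4.67%), was found in any of the 12. In the Mef2c window, which starts inside the gene at an alternative transcript start, capitals mark a match to the κB letters and then a match to TGANTCA, the AP-1 site, found in 7.81% of all windows. The Tgfbr1 window at the gene's first start held none of the 7 motifs, nor did the Mef2c window at that gene's first start, which is not shown. In the window at the inner start of Tgfbr1 capitals mark CAGACA, the SMAD box, which 21.04% of all windows hold, and which 1 other Mef2c window held too.

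Mef2c, chr13:83573357-83573656, plus strand: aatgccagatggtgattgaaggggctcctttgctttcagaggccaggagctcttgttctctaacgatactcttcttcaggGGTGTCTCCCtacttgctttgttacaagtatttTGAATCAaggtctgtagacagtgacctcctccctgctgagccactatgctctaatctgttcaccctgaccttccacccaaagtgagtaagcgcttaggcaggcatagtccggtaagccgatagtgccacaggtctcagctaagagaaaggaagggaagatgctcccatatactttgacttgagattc

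Tgfbr1, chr4:47352972-47353271, plus strand: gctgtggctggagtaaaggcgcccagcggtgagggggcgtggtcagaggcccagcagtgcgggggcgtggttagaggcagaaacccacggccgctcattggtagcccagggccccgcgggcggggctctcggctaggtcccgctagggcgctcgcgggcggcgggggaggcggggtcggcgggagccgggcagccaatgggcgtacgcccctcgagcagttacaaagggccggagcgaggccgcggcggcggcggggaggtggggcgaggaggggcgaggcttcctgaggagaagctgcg

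Tgfbr1, chr4:47385966-47386265, plus strand: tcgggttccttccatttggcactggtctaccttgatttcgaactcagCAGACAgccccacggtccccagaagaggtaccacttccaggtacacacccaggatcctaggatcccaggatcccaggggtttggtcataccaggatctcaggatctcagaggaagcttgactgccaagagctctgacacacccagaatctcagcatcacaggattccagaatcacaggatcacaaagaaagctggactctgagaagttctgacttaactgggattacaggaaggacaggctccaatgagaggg

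Ikbkb-/- cultures differed little from their controls in the 9 genes. In Ikbkb-/- cultures 14.6% of the 11242 genes tested were called, with 6.96% of those tested lower, and 2 of the 9 were called, both lower. Csf1r was 1497, 1525, 1517 and 1686 CPM in Ikbkb-/- cultures and 2114, 2149, 1845 and 1646 CPM in Ikbkb+/+ cultures, a log2 fold change of -0.30 (SE 0.09, FDR = 0.036). Its groups overlapped through 1 culture on each side. Maf was 1112, 1025, 858 and 949.5 CPM against 1165, 1322, 1173 and 1238 CPM, with no overlap, a log2 fold change of -0.30 (SE 0.09, FDR = 0.033). All lower without overlap were 9.3% of genes tested. The Csf1r call held in 2 of 8 fits that left out 1 library, those without replicate 4 of either group. The Maf call held in 4 of 8, those without Ikbkb+/+ replicate 1 or 4 or Ikbkb-/- replicate 1 or 2, and both were lost when the 18 libraries of both Ikbkb experiments were fitted together (FDR = 0.27 and 0.11).

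Sex-linked transcripts went with the genotype. Xist was 5.65 to 10.4 CPM in Ikbkb-/- and 243 to 400.5 CPM in Ikbkb+/+ cultures, and Ddx3y was 155 to 173 CPM and 35.0 to 69.4 CPM. The groups do not overlap in either, so a fit with Ddx3y as a covariate rests on the spread within groups. In that fit the log2 fold change of Csf1r was -0.92 (FDR = 0.033) and that of Maf -0.47 (FDR = 0.45), and Tgfbr1 was called at -1.41 (FDR = 0.0048) against -0.09 (FDR = 0.73) without the covariate. Sex and genotype cannot be told apart here. Border-associated macrophage markers summed to 424 to 744 CPM in Ikbkb-/- and 1521 to 1859 CPM in Ikbkb+/+ cultures, with 6 of 6 called lower, and Cx3cr1, the locus of the Cre, was 1055 ± 112 CPM and 2372 ± 443 CPM (SD, n = 4 each, FDR = 1.6e-06). Oligodendrocyte lineage markers summed to 861 to 1011 CPM and 532 to 657 CPM, with 7 of 11 called higher, endothelial and mural markers to 173 to 227 CPM and 73.5 to 143 CPM, and monocyte and granulocyte markers to 9.10 to 14.03 CPM and 9.03 to 408 CPM, with 2 of 3 tested called lower. Their part in the Csf1r and Maf levels was not tested. Per 1000 CPM of microglia markers, whose sum was 22800 to 25270 CPM in Ikbkb-/- and 19000 to 21630 CPM in Ikbkb+/+ cultures, 5 of the 9 genes (Csf1r, Maf, Mef2a, Mef2c and Smad3) were lower in every Ikbkb-/- culture and none higher, against 26.3% of all genes lower and 3.03% higher.

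The other 7 genes had log2 fold changes between -0.13 and 0.18, with standard errors of 0.08 to 0.14. Mef2c was 425, 465, 483 and 414 CPM against 468, 477, 461 and 429.8 CPM (-0.02, SE 0.08, FDR = 0.88), and Tgfbr1 136, 161, 154.5 and 160.3 CPM against 213, 189, 152 and 113 CPM. Runx1 (0.18, SE 0.09, FDR = 0.22) and Spi1 (0.16, SE 0.08, FDR = 0.24) were positive and not called. Of 25 TGF-β and SMAD genes 2 were higher and 2 lower, Nrros at -0.37 (SE 0.09) and Tgif1 at 0.33 (SE 0.10) among them. Of 20 CSF1R axis genes 3 were higher, Csf1 with 0.38 (SE 0.12) and the phospholipase gene Plcg2 with 0.44 (SE 0.12) among them, and 1 lower. Of 20 homeostatic genes 8 were lower, led by Siglech at -3.79 (SE 0.68), and 1 was higher.

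The IkbkbCA effect differed from the Ikbkb-/- effect for 2 of the 9 genes, where 3.12% of 12352 genes were called. A change of equal size in both Cre-bearing groups would cancel in this contrast. Cx3cr1 was 1198 against 1759 CPM in IkbkbCA and IkbkbWT cultures, and 1055 against 2372 CPM in Ikbkb-/- and Ikbkb+/+ cultures. Sex goes with genotype only in the Ikbkb-/- experiment, so an effect of sex would not cancel. The difference of log2 fold changes was 1.17 for Tgfbr1 (SE 0.26, FDR = 0.015) and -0.74 for Mef2c (SE 0.16, FDR = 0.012). Both were called in all 18 fits that left out 1 library and in 7 of 7 other settings, Ddx3y as a covariate among them. Across those settings the difference was 1.10 to 1.22 for Tgfbr1 and -0.79 to -0.71 for Mef2c. The part of sex and of the Cre in these differences was not tested further. For Maf, lower in both mutants, the difference was -0.41 (SE 0.15, FDR = 0.16), and for Csf1r it was 0.48 (SE 0.20, FDR = 0.24).

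The tau effect differed from the IkbkbCA effect for 4 of the 9, where 9.42% of 12841 genes were called. Maf rose with tau fibrils and fell in IkbkbCA cultures, and the difference of log2 fold changes was 2.23 (SE 0.15, FDR = 5.9e-09). For Csf1r it was 0.98 (SE 0.20, FDR = 0.0029), for Spi1 0.97 (SE 0.22, FDR = 0.0082) and for Mef2c 0.88 (SE 0.19, FDR = 0.0058). Tgfbr1, called higher in both, had a difference of -0.46 (SE 0.24, FDR = 0.25). The experiments differ in 4-hydroxytamoxifen, given to both groups of the IkbkbCA experiment, as well as in tau and IKKβ. Plating before RNA collection, which the paper describes for the tau experiment only, may differ too. Only the IkbkbCA group has a Cx3cr1 allele replaced by the Cre. Cx3cr1 differed by 1.57 (SE 0.17, FDR = 3.5e-06 in edgeR's quasi-likelihood test), and 7 of 11 microglia markers were called higher in this contrast too. The part of the Cre and of the markers in the result was not tested.

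**Figure D4:**
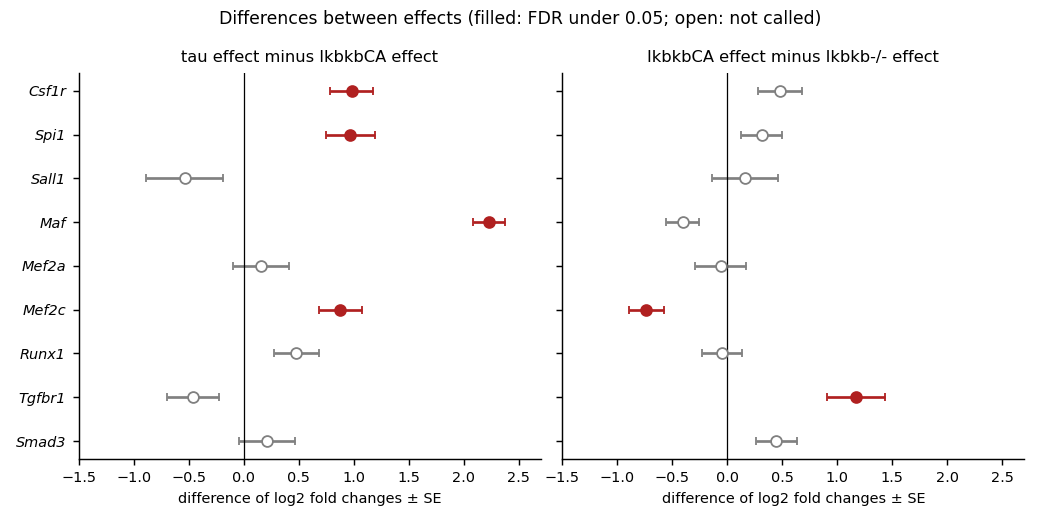
Difference of log2 fold changes, with bars of 1 SE, between tau fibrils and IkbkbCA (left) and between IkbkbCA and Ikbkb-/- (right) for the 9 genes; filled points have an FDR under 0.05. Maf stands farthest out on the left at 2.23, and Tgfbr1 (1.17) and Mef2c (-0.74) are the 2 called genes on the right.

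The 9 genes did not vary as one block within the experiments. Each library's log2 CPM was taken as a deviation from the mean of its own experiment, and Pearson's r was computed over the 34 libraries, which share depth and marker content within groups. Spi1 and Runx1 were most alike (r = 0.773), then Csf1r and Smad3 (r = 0.748) and Csf1r and Spi1 (r = 0.738), while Csf1r and Sall1 had r = 0.061. Among 13722 genes, the most similar to Spi1 was Rps6ka1 (r = 0.934), followed by Cyba (0.915) and Grk2 (0.908). Maf was nearest to the C-type lectin receptor gene Clec4a3 (0.902), then Igfbp4 (0.869) and Abca9 (0.846). Runx1 was nearest to the kinase gene Syk (0.88), Csf1r to Pecam1 (0.861), which also marks endothelium, Tgfbr1 to Lpcat2 (0.842) and the cathepsin S gene Ctss (0.836), Smad3 to Sirpa (0.80), Mef2c to the prostaglandin synthase gene Hpgds (0.798) and Mef2a to Cnot4 (0.794). Sall1 had the weakest neighbor, the purine receptor gene P2ry13 (0.737).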

How the data were processed

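The members and the gene lists were chosen with earlier results of these data known. RNA from 34 microglia samples was sequenced with QuantSeq 3′ mRNA-Seq, and the authors deposited whole-number read counts per Ensembl gene, made on BlueBee with Lexogen's QuantSeq workflow against GENCODE GRCm38; the submitters' processing notes also name STAR, RSEM, edgeR and limma. The 5 lines of uncounted reads were left out, and reads outside genes made up 12.4% to 38.3%. Of 47643 identifiers 47224 matched GENCODE M21. Groups came from the labels. The 24 cortex samples were not analysed here.

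Each comparison was fitted over all genes with edgeR 4.0.16 (TMM, filterByExpr with a minimum count of 10 and a minimum total of 15, quasi-likelihood F-test, Benjamini-Hochberg FDR under 0.05) in R 4.3.3; differences of effects and adult against cultured microglia were contrasts of joint fits. Alternatives were RLE and total-count scaling, DESeq2 1.42.0, limma-voom (limma 3.58.1), other filters, covariates and leaving out each library. The Ddx3y covariate, the levels per marker CPM and the adult comparison against single sets of controls were added after the data were seen. The code was tested on simulated data. No pair of the 56 within-group library pairs was identical. Named list genes were chosen among the called genes with the 4 largest absolute log2 fold changes of each list, with a mean count of at least 10 in the higher group, and similar genes were the 3 with the highest Pearson r; Tgfbr2, Aif1, Csf1 and the markers of sex were named after their values were seen. Total counts of 1672052 to 8349128 per library set the precision.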

Additional observations from a re-analysis of the deposited data

Results flagged for a closer look

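Of 72 gene and group combinations, 6 held a sample far from the others of its group, where chance gives about 1 in 20. These were Csf1r in Ikbkb-/- replicate 4 at 1686 CPM, Spi1 in IkbkbWT replicate 5 at 213.4 CPM and in Ikbkb+/+ replicate 2 at 285.9 CPM, Mef2a in tau-treated replicate 4 at 251.2 CPM and in Ikbkb-/- replicate 4 at 549.9 CPM, and Tgfbr1 in NTG replicate 2 at 1172 CPM. The 1686 CPM of Csf1r is the value through which its Ikbkb-/- and Ikbkb+/+ groups overlap.

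Of 18 tested differences between effects, 6 passed an FDR of 0.05 in edgeR's quasi-likelihood test. Between IkbkbCA and Ikbkb-/- the log2 difference was -0.74 for Mef2c and 1.17 for Tgfbr1. Between tau fibrils and IkbkbCA it was 0.98 for Csf1r, 0.97 for Spi1, 2.23 for Maf and 0.88 for Mef2c.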

How the results depend on the processing

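Outside the fits that left out 1 library, 436 results kept their direction and side of the threshold, 11 lost and 5 gained a call, and 7 turned in sign. The called one was Maf in NTG mice, at -0.041 against the IkbkbWT and Ikbkb+/+ cultures only, a setting chosen after seeing the data. The other 6 were not called: Mef2a with tau fibrils under total-count scaling (-0.041), Spi1 (-0.054) and Runx1 (-0.0084) in PS19 mice with age as a covariate, Smad3 in PS19 mice with the outside-gene read share in the model (-0.040), and Spi1 (-0.082) and Mef2a (0.25) in Ikbkb-/- cultures with Ddx3y as a covariate. Against 8 genes called in PS19 mice, DESeq2 called 98, limma-voom 4, the fit without a filter 166 and that with age 0. Age varied among NTG mice only, so the age fit sets PS19 mice against NTG replicates 3 and 4. Against 1641 genes in Ikbkb-/- cultures, a fit of 18 libraries called 875 and Ddx3y left 291, and the former called 0 of the 9 genes in place of 2. The adult comparison called 4841 genes, against 7907, where every library had 10 counts, a filter that tests fewer genes. The other causes were not tested.

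Leaving out 1 library, 737 results were kept, 26 lost and 2 gained a call, and 18 turned in sign. Genes called ranged from 4 to 54 in PS19 mice (54 without PS19 replicate 2, 4 or 5 without any 1 NTG library) and from 255, without Ikbkb+/+ replicate 3, to 431 for the difference of the IkbkbCA and Ikbkb-/- effects, and members called in Ikbkb-/- cultures from 0 (without Ikbkb+/+ replicate 2 or 3 or Ikbkb-/- replicate 3) to 2. Log2 fold changes that turned, none called, were Mef2a with tau fibrils (-0.0048 to 0.16); Csf1r (-0.12 to 0.22), Runx1 (-0.038 to 0.081) and Smad3 (-0.095 to 0.14) in PS19 mice; Sall1 (-0.066 to 0.24) and Mef2a (-0.24 to 0.039) in IkbkbCA; Sall1 (-0.23 to 0.085), Mef2c (-0.064 to 0.0078) and Tgfbr1 (-0.25 to 0.045) in Ikbkb-/-; and, for the difference of IkbkbCA and Ikbkb-/- effects, Mef2a (-0.18 to 0.078) and Runx1 (-0.12 to 0.063). No paired analysis was possible because the labels give no replicate numbers: those used here follow the order of the samples and only name a library. Counts were lowest for Smad3 and Sall1 in the tau experiment, down to 31 for Smad3 in a vehicle library.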

Other observations

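Csf1, the ligand of CSF1R, was 130 CPM on average in PS19 microglia and 43.6 CPM in NTG microglia, higher in 4 of 4 PS19 libraries than in any NTG library (log2 fold change 1.504, FDR = 0.11 in edgeR's quasi-likelihood test), and did not pass here. The paper, with its own fit, lists Csf1 among the genes higher in PS19 microglia at an FDR under 0.05. Why the calls differ was not tested.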
